A study of Mus musculus with 9 samples.

Results

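The genes described here are those of mitochondrial protein import and of the mitochondrial carrier family, taken as all protein-coding genes of the mouse annotation whose symbols start with *Slc25a*, *Timm* or *Tomm*. They numbered 66 of 22367 protein-coding genes on the nuclear chromosomes, with 44 *Slc25a*, 12 *Timm* and 10 *Tomm* genes. The rule used names only and no measured value, but the set was chosen with earlier results of these data known. Each gene was scored by whether a BAP1 binding site lay close to a transcription start site (TSS).

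BAP1 is a deubiquitinase that removes ubiquitin from histone H2A and acts in chromatin. The binding sites came from ChIP-Seq in Ba/F3, a murine B cell precursor line that depends on IL-3, here supplied by WEHI-conditioned medium. An antibody to BAP1 was used on chromatin of wild type cells, and an antibody to FLAG on that of cells kept under puromycin with stable expression of triple-FLAG-tagged murine BAP1. Input DNA (4 samples) and H2AK119ub ChIP-Seq of wild type cells and *Bap1* knockout clones (3 samples) were not analysed here. Both groups were cultures of the same line, each immunoprecipitated and sequenced once, and the tagged protein came from an introduced construct beside whatever the cells made themselves.

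The data were 1 list of 13164 peaks that joined both immunoprecipitations, each 200 bp wide and without height, score or sample of origin. Values per sample, replicate error and sequencing depth were therefore unknown, and intervals given below are 95% Wilson intervals that cover counting error only. A gene is called bound when the middle of a peak lay within 1 kb of any of its TSSs, which is a gene-proximal peak, and unbound otherwise. The threshold of the peak caller was not stated, so unbound means only that no listed peak was there. Expression in these cells was not measured in the data used here.

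Nearly all mitochondrial proteins are encoded in the nucleus and made in the cytosol. They enter through the TOM complex of the outer membrane, whose receptors recognize the incoming chain and whose channel passes it on. The TIM23 complex of the inner membrane then takes proteins with a presequence, whereas small TIM chaperones escort membrane proteins across the intermembrane space to the TIM22 complex. Most SLC25 carriers, themselves TIM22 clients, exchange nucleotides, phosphate, metabolites and cofactors across the inner membrane.

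BAP1 peaks lay at the start sites of most of these genes. In all, 49 of 66 members were bound, 74.2% (62.6 to 83.3%), where 8850 of 22367 protein-coding genes, 39.6%, were bound. The shares were 31 of 44 *Slc25a* genes (70.5%, 55.8 to 81.8%), 9 of 12 *Timm* genes (75.0%, 46.8 to 91.1%) and 9 of 10 *Tomm* genes (90.0%, 59.6 to 98.2%). The intervals of the 3 families overlapped. Every one of the 16 functional classes into which the genes were sorted held a bound member, and 7 were bound throughout, of which 3 hold a single gene and 2 hold 2 genes.

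**Figure D1:**
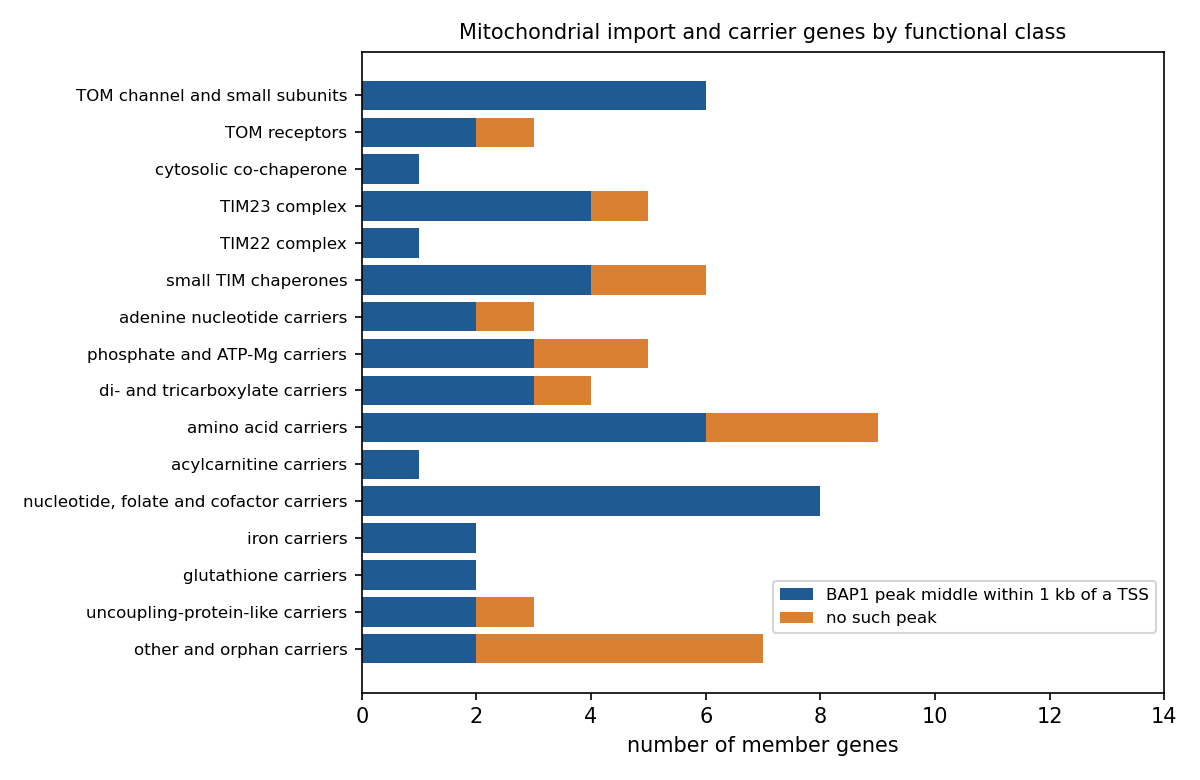
Bars give the number of genes in each functional class, in blue those with a peak middle within 1 kb of a TSS and in orange those without. The TOM channel and small subunits (6 of 6) and the nucleotide, folate and cofactor carriers (8 of 8) were bound throughout. Of the other and orphan carriers, 2 of 7 were bound, beside 39.6% of all protein-coding genes.

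The outer membrane gate was bound almost throughout. All 6 genes of its channel and small subunits had a gene-proximal peak: *Tomm40*, the pore itself, its relative *Tomm40l*, *Tomm22*, which links receptors to the pore, and the small subunits *Tomm5*, *Tomm6* and *Tomm7*. Of the receptors, *Tomm20*, which recognizes presequences, and *Tomm70a*, which takes up carrier precursors, were bound. *Tomm20l*, a relative of *Tomm20*, was the unbound *Tomm* gene. *Tomm34*, a cytosolic co-chaperone of import, was bound. Nearest peak middles lay between 79 bp upstream (*Tomm70a*, -79) and 52 bp downstream (*Tomm20*) of the TSS, so no *Tomm* gene owed its call to a peak near the limit of the window.

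The DNA under 4 of these peaks is shown with the start of *Tomm20l*, since the receptors *Tomm20* and *Tomm20l* fell on opposite sides of the call. Sequences are from the NCBIM37 (mm9) genome, 5′ to 3′ along the strand of the gene, and were shortened so that at most 30 annotated exonic bases remain at the start-site end. For an unbound gene the window runs from 170 bases before the TSS to 29 after it, or its part after shortening. Capitals mark every match, on either strand, to 8 short motifs. The letters searched were CCGGAAG for the ETS family, CGCATGCG for the factor NRF1, AANATGGC for the factor YY1, and GGGCGG for the SP and KLF families. The others were CCAAT for the CCAAT box, TGACGT for the cAMP response element (CRE), ACTACAA for the factors Ronin and ZNF143, and CACGTG for the E-box.
Tomm70a peak chr16:57121649-57121848, plus strand: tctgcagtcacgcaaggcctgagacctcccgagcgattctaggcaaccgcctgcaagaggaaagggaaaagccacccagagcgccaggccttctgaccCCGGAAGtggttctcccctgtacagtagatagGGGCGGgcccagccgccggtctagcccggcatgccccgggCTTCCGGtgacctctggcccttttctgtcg
Tomm22 peak chr15:79501173-79501320, plus strand: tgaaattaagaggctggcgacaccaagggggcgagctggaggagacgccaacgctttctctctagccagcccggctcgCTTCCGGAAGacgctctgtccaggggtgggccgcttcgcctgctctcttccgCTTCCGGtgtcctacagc
Tomm20 upstream peak chr8:129469725-129469924, minus strand: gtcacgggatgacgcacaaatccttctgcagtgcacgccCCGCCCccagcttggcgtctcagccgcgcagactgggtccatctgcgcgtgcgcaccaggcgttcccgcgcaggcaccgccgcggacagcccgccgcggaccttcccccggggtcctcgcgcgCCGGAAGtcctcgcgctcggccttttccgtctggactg
Tomm7 peak chr5:23349950-23350113, minus strand: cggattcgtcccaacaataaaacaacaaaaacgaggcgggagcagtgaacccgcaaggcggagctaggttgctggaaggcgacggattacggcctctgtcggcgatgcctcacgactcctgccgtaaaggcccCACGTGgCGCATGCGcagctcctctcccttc
Tomm20l start chr12:72212245-72212444, plus strand: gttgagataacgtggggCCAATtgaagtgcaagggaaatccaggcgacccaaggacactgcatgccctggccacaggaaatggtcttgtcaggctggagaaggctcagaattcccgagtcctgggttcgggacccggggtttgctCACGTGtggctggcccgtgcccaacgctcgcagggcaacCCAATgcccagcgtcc

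*Tomm70a*, *Tomm22* and *Tomm20* each carried ETS letters in their peaks, and *Tomm22* held them in both orientations run together. The *Tomm7* stretch held an E-box next to an NRF1 match. The *Tomm20l* window held CCAAT and E-box letters and no ETS match. The peak nearest to *Tomm20l* lay 2684 bp downstream of its TSS, at chr12:72215000-72215199, in its own intron and away from any annotated start.

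In the inner membrane, 4 of 5 genes of the TIM23 complex were bound. *Timm23* and *Timm17a* form the translocase, *Timm50* is its receptor, and *Timm44* ties it to the import motor in the matrix. Their peak middles lay at +6, -38, +3 and -9 bp. *Timm17b*, the second TIM17 gene, was unbound, with the nearest peak 15062 bp away at the start of *Slc35a2*. *Timm22*, the channel for carriers, was bound at +3 bp. Of the 6 small TIM chaperones, *Timm8b*, *Timm9*, *Timm10* and *Timm13* were bound, and *Timm8a1* and *Timm8a2* were not. *Timm9* and *Timm10* partner in the chaperone ring that hands carriers to TIM22, and *Timm13* partners with the TIM8 proteins. The *Timm9* peak lay 451 bp upstream, closer to the neighboring start of *2700049A03Rik* than to its own.

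The TIM8 genes are shown next because 1 of 3 was bound. *Timm8b* shares its peak with *Sdhd*, a subunit of succinate dehydrogenase, which is transcribed in the other direction from a start 52 bp away.
Timm8b peak chr9:50411955-50412035, plus strand: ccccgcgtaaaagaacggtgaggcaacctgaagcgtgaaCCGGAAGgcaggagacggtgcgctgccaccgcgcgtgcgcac
Timm8a1 start chrX:131076375-131076574, minus strand: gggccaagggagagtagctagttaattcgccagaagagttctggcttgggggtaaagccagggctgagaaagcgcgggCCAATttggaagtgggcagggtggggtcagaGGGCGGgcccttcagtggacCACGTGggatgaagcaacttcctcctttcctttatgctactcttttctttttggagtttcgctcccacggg
Timm8a2 start chr14:122433726-122433925, plus strand: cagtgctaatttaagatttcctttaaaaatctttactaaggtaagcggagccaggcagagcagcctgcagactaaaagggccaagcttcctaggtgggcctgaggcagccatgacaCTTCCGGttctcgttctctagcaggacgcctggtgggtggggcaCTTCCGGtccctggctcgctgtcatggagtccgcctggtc

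The *Timm8b* peak stretch held an ETS match just before the TSS. *Timm8a2* held ETS letters in its window as well and was unbound, with its nearest peak 70280 bp away. *Timm8a1* held SP/KLF, CCAAT and E-box letters, and its nearest peak lay 43770 bp away at *Rpl36a*.

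Among the carriers of energy metabolism, the adenine nucleotide translocases *Slc25a4* and *Slc25a5*, which exchange ADP for ATP, were bound, and the isoform *Slc25a31* was not. The phosphate carrier *Slc25a3* was bound at -21 bp. The ATP-Mg/phosphate carriers, which adjust the adenine nucleotide content of the matrix, were split: *Slc25a23* and *Slc25a25* were bound and *Slc25a24* and *Slc25a41* were not. Of the dicarboxylate and tricarboxylate carriers, *Slc25a1* (citrate), *Slc25a10* (dicarboxylates) and *Slc25a11* (oxoglutarate and malate) were bound, and *Slc25a21* (oxodicarboxylates) was not. *Slc25a20*, which brings acylcarnitines to fatty acid oxidation, was bound at -15 bp. Of the uncoupling-protein-like carriers, *Slc25a14* and *Slc25a30* were bound, and *Slc25a27* had its nearest peak 411615 bp away, the farthest of any member.

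Sequences of the bound *Slc25a5*, *Slc25a3* and the unbound *Slc25a31* are given because they set bound carriers beside an unbound isoform.
Slc25a5 peak chrX:34335472-34335671, plus strand: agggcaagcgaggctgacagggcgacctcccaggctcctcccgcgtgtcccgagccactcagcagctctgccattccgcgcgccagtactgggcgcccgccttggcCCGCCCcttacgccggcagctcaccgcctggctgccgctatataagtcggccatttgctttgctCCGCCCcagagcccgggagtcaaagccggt
Slc25a3 peak chr10:90586775-90586925, minus strand: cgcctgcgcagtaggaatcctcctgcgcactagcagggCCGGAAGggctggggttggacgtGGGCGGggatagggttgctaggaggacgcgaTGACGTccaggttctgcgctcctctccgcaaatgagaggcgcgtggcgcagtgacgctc
Slc25a31 start chr3:40512607-40512806, plus strand: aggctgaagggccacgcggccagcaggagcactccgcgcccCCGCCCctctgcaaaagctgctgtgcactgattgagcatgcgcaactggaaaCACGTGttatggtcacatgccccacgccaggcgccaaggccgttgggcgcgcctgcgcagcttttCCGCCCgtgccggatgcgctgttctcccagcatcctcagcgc

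All 3 stretches held SP/KLF letters. *Slc25a3* added an ETS and a CRE match, and *Slc25a31* an E-box. The CpG ratio, observed over expected CpG in the 500 bp on either side of the TSS, was 0.60 at *Slc25a5*, 0.72 at *Slc25a4* and 0.75 at *Slc25a31*, so the unbound isoform had the highest of the 3.

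Of 9 amino acid carriers, 6 were bound. *Slc25a13* (citrin, an aspartate/glutamate carrier), *Slc25a15* (ornithine), *Slc25a22* (glutamate), *Slc25a29* (basic amino acids), *Slc25a38* (glycine, for heme synthesis) and *Slc25a44* (branched-chain amino acids) had peaks. *Slc25a12* (aralar), *Slc25a18* (the second glutamate carrier) and *Slc25a2* (the second ornithine carrier) did not.

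The carriers of nucleotides, folate and cofactors were bound in 8 of 8 cases (67.6 to 100%), among them *Slc25a16* and *Slc25a42* (coenzyme A), *Slc25a17* (the peroxisomal member), *Slc25a26* (S-adenosylmethionine), *Slc25a32* (folate), and *Slc25a33* and *Slc25a36* (pyrimidine nucleotides). Both mitoferrins, *Slc25a28* and *Slc25a37*, which import iron, were bound, as were *Slc25a39* and *Slc25a40*, the glutathione carriers. Of the other and orphan carriers, 2 of 7 were bound (28.6%, 8.22 to 64.1%), an interval that holds the 39.6% of all protein-coding genes. These were *Slc25a35* and *Slc25a46*, the latter an outer membrane protein of mitochondrial dynamics. *Slc25a34*, *Slc25a43*, *Slc25a45*, *Slc25a47* and *Slc25a48* were unbound.

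Close relatives fell on the same side in some groups and on opposite sides in others. Members were placed in 13 chosen groups of paralogs with 31 genes, and 9 groups had both bound and unbound genes, 12 bound and 11 unbound. The share of split groups among other gene families was not computed. The other 4 groups, TOM40, glutathione, mitoferrin and pyrimidine nucleotide, were bound throughout. The 6 remaining unbound members were not placed in any of these groups, which does not mean that they lack relatives. In the split pairs, the peak at the bound gene lay 12 bp (*Slc25a13*), 4 bp (*Slc25a22*), 1 bp (*Slc25a15*), 38 bp (*Timm17a*) and 52 bp (*Tomm20*) from the TSS. The nearest peak to the partner lay 21441 bp (*Slc25a12*), 36911 bp (*Slc25a18*), 5537 bp (*Slc25a2*), 15062 bp (*Timm17b*) and 2684 bp (*Tomm20l*) away. In the larger split groups, *Slc25a4* and *Slc25a5* stood at 64 and 75 bp and *Slc25a31* at 36357 bp. Likewise *Slc25a23* and *Slc25a25* stood at 37 and 602 bp, and *Slc25a41* and *Slc25a24* at 9360 and 184980 bp.

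**Figure D2:**
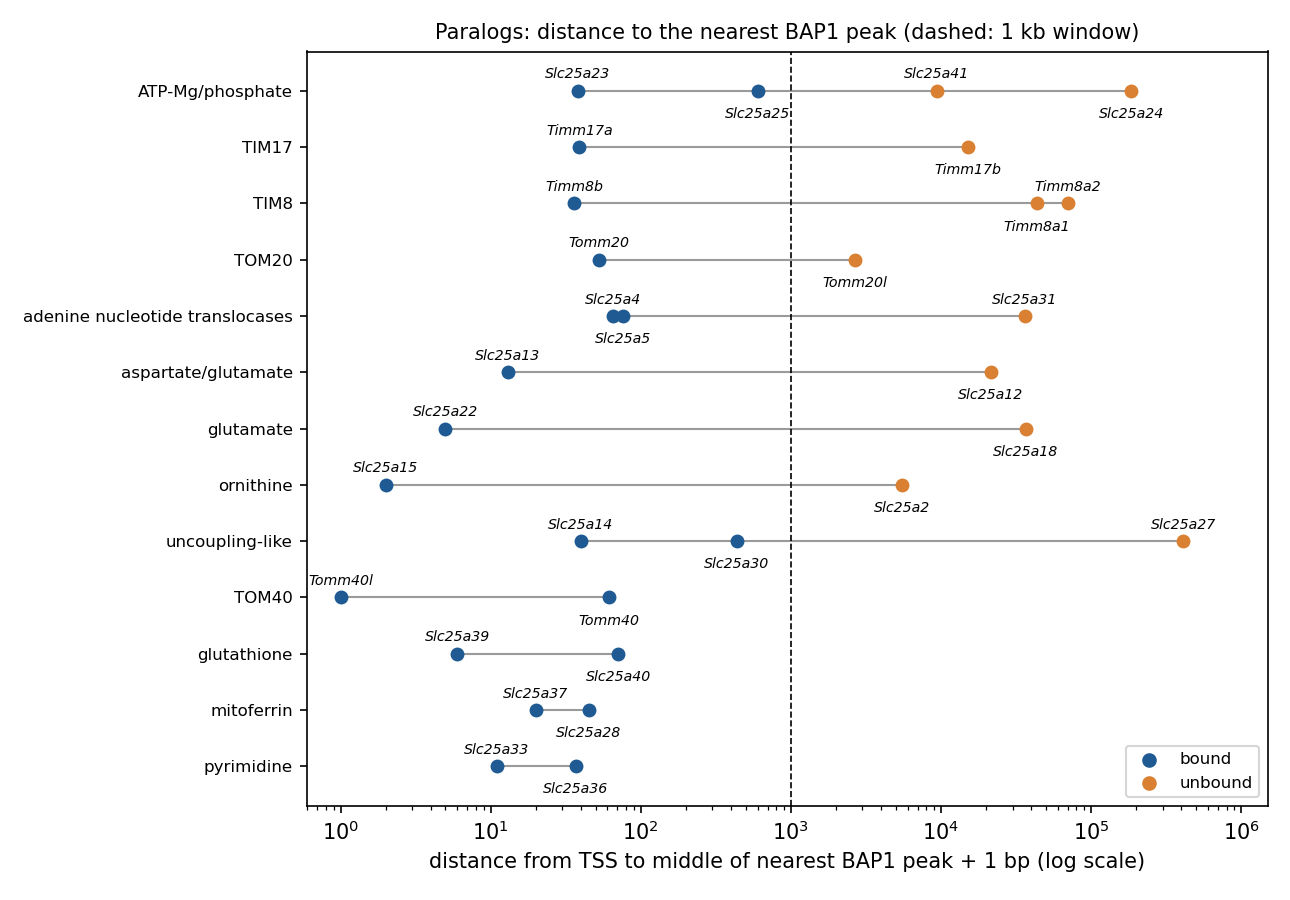
Each row is a group of paralogs, and each point gives the distance from a TSS of the gene to the middle of the nearest peak, plus 1 bp, on a log axis, with bound genes in blue and unbound genes in orange. The dashed line marks the 1 kb window, and no gene shown lay between 602 and 2684 bp.

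The CpG content of the start did not order these pairs one way. The bound gene had the higher ratio in *Slc25a22* against *Slc25a18* (0.55 and 0.17), *Slc25a15* against *Slc25a2* (0.78 and 0.44) and *Tomm20* against *Tomm20l* (0.82 and 0.56). The ratios were close in *Timm17a* and *Timm17b* (0.76 and 0.73) and in *Timm8b* and *Timm8a1* (0.78 and 0.79), whereas the unbound *Timm8a2* stood at 0.47. *Slc25a13* had the lower ratio and the peak, 0.55 against 0.72 at *Slc25a12*.

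Peaks sat on the start sites themselves. Over the 49 bound members the median position of the nearest peak middle was -21.0 bp (quartiles -39.0 and 1.00), beside -32.5 bp (quartiles -73.0 and 0) over the 8850 bound protein-coding genes. The middle lay within 100 bp of the TSS in 44 of 49 members (89.8%, 78.2 to 95.6%), beside 77.8% of all bound genes. It lay upstream in 34 of 49 (69.4%), beside 75.0%. The medians were -27.0 bp in *Slc25a*, -7.00 bp in *Timm* and -19.0 bp in *Tomm* genes.

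**Figure D3:**
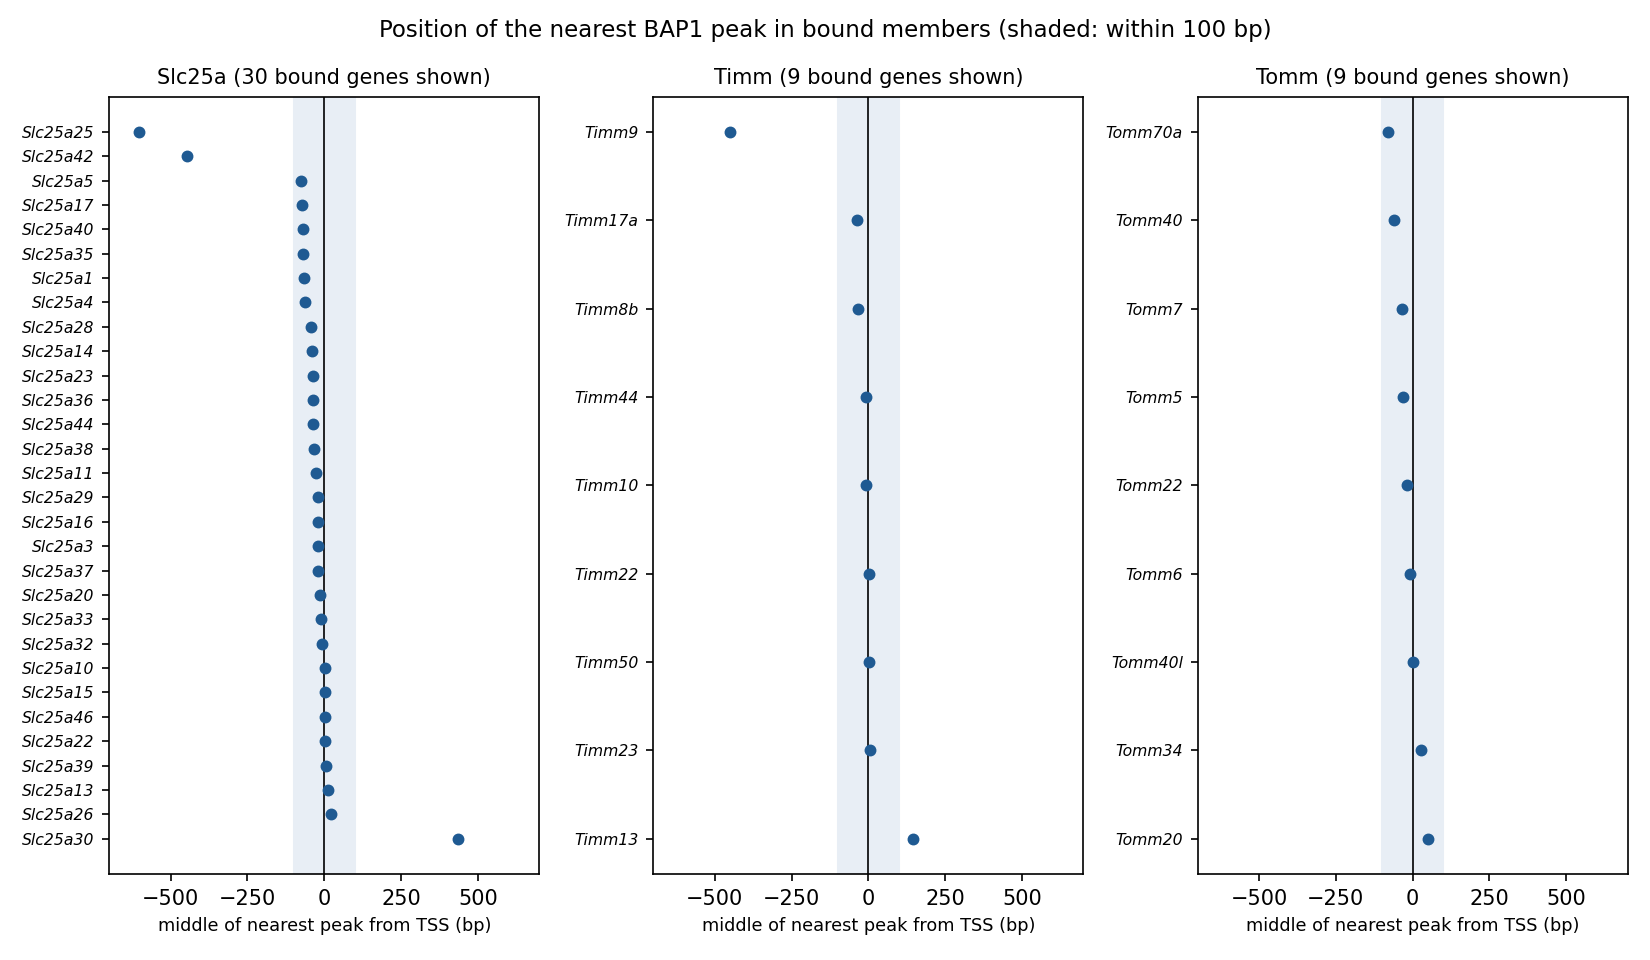
Each point gives the middle of the nearest peak relative to the TSS, in bp and negative upstream, for 48 of the 49 bound members in 3 panels by family. Within the shaded 100 bp on either side lie 43 of these, and *Slc25a25*, *Slc25a42*, *Timm9*, *Slc25a30* and *Timm13* lie outside it.

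The 5 members outside that range had different surroundings. The peak of *Slc25a25* at chr2:32307468-32307667 lay 602 bp upstream of its first TSS, that of *Timm9* at chr12:72238014-72238213 lay 451 bp upstream, and that of *Slc25a42* at chr8:72736553-72736752 lay 448 bp upstream. The peak of *Slc25a30* at chr14:76186310-76186509 lay 435 bp downstream in an intron. The peak of *Timm13* at chr10:80363470-80363669 lay 145 bp downstream in an annotated UTR. None of these 5 peaks covered a TSS of its gene.

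The nearest cases beyond the window were *Slc25a45* at 2505 bp, *Tomm20l* at 2684 bp, *Slc25a34* at 5011 bp, *Slc25a2* at 5537 bp and *Slc25a41* at 9360 bp. Except for *Tomm20l*, these peaks lay within 1 kb of a start of another gene, namely *Frmd8*, *Tmem82*, *Taf7* and *Khsrp*. Over the 17 unbound members the nearest peak lay a median of 32900 bp away (2505 to 411615 bp). It lay within 50 kb in 12 of 17 (70.6%, 46.9 to 86.7%), beside 38.5% of all unbound protein-coding genes. For 2 members that peak belonged to another carrier: the one nearest to *Slc25a47*, 15224 bp away, was the peak of *Slc25a29*, and the one nearest to *Slc25a43*, 51865 bp away, was that of *Slc25a5*.

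*Slc25a29* and *Slc25a47* are neighbors on chromosome 12 and are shown together, since the peak of the former was the closest to both.
Slc25a29 peak chr12:110074064-110074215, minus strand: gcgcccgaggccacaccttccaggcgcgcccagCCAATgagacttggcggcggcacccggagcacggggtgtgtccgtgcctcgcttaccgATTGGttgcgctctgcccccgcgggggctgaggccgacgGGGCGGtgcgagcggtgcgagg
Slc25a47 start chr12:110089169-110089368, plus strand: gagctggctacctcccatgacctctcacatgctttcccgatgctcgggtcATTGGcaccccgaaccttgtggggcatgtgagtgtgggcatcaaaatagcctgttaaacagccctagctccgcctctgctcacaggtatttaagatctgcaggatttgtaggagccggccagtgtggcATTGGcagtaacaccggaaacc

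The *Slc25a29* stretch held an SP/KLF match and CCAAT letters in both orientations, and the *Slc25a47* window held CCAAT letters alone. The CpG ratios of the starts were 0.86 and 0.22.

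The remaining unbound genes had their closest peak at *Hat1* (*Slc25a12*), *Atp6v1e1* (*Slc25a18*), *Mipol1* and *Prps1l3* (*Slc25a21*, 32932 bp), *Hspa4l* (*Slc25a31*), *Gm12521* (*Slc25a24*), *Enpp5* (*Slc25a27*) and *Smad5* (*Slc25a48*, 264652 bp). The peak closest to *Timm8a2* was at no annotated start. On the X chromosome, 2 of 5 members were bound, *Slc25a5* and *Slc25a14*, beside 23.6% of the protein-coding genes there. *Slc25a43*, *Timm8a1* and *Timm17b* were the unbound ones.

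The 49 bound genes held 61 listed peaks, some of which overlap each other, and 47 covered a TSS of the member. The matching share over all gene-proximal peaks was not computed. The middles of 35 peaks lay upstream of the gene, 22 in an annotated UTR and 4 in an intron. In 38 genes there was 1 peak, in 10 there were 2 and in *Slc25a39* there were 3. More than 1 peak was thus seen in 11 of 49 (22.4%, 13.0 to 35.9%), beside 25.5% of all bound genes.

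Most of these second peaks were close to the first. Peaks are 200 bp wide, so those with middles less than 200 bp apart overlap. Whether such peaks are separate sites cannot be told from the list. Middles were 117 bp apart at *Slc25a28* (chr19:43749199-43749398 and chr19:43749316-43749515), 153 bp at *Tomm20*, 163 bp at *Tomm40l* and 171 bp at *Slc25a4*. They were 354 bp apart at *Slc25a11*, 415 bp at *Slc25a36*, 475 bp at *Tomm40*, 492 bp at *Slc25a38* and 520 bp at *Slc25a1*. At *Slc25a39*, peaks at +5, -39 and -621 bp, each from its nearest own TSS, were 101 and 984 bp apart. *Slc25a22* had its peaks 2177 bp apart, at chr7:148621193-148621392 and chr7:148623370-148623569, each on a start of its own. When peaks with edges within 500 bp were merged, *Slc25a22* and *Slc25a39* alone kept more than 1. *Slc25a35* had a further peak inside the gene, more than 1 kb from its TSSs.

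Where a gene had several start regions, more than 500 bp apart, the peak was at the first. Of 27 such members 22 were bound, and the most 5′ region was bound in 22 of 22, beside 4419 of 4865 bound protein-coding genes with several regions (90.8%). In 20 of the 22 it was the only bound region. At *Slc25a22*, 3 of 5 regions lay within 1 kb of one of its 2 peaks. At *Slc25a46*, both regions, 627 bp apart, lay within 1 kb of its single peak. *Slc25a25* had 7 regions over 34851 bp and a peak at the first, from which 2 of its 7 coding transcripts start. *Slc25a23* had 4 regions, and 1 of its 4 coding transcripts starts at the bound one. At *Slc25a39* it was 7 of 8 coding transcripts.

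In 10 of 49 bound members (20.4%, beside 24.3% of all bound genes) the peak also lay within 1 kb of a coding gene transcribed in the other direction. The closest were *Timm23* with *Parg* (starts 51 bp apart), *Timm8b* with *Sdhd* (52 bp) and *Slc25a40* with *Dbf4*, a cell cycle kinase regulator (134 bp), and in these 3 the peak covered both starts. The others were *Slc25a32* with *Dcaf13* (158 bp), *Timm9* with *2700049A03Rik* (173 bp), *Slc25a11* with *Rnf167*, *Slc25a46* with *B930094E09Rik* (390 bp), *Slc25a23* with *Crb3* (758 bp), *Tomm34* with *Stk4* (847 bp) and *Tomm6* with *Frs3* (962 bp). The peak middle was far closer to the member at *Tomm6* (8 bp, and 954 bp from *Frs3*), *Tomm34* (28 and 819 bp) and *Slc25a23* (37 and 795 bp). When each peak went to the nearest TSS alone, *Slc25a40*, *Timm8b* and *Timm9* lost theirs to the partner.

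The stretch between *Slc25a40* and *Dbf4* is given as the example in which the peak middle was nearly as far from both starts, 70 bp from *Slc25a40* and 64 bp from *Dbf4*.
Slc25a40 peak chr5:8422717-8422879, plus strand: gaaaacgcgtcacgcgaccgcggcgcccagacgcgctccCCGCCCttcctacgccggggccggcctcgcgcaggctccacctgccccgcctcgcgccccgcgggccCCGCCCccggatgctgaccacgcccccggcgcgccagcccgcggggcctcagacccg

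Its marked letters are SP/KLF matches. The CpG ratio there was 0.92.

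CpG content is a known feature of the starts of broadly used genes, and it moved with the calls. A CpG-rich start, with a ratio above 0.6 and GC content above 50%, was found in 46 of 66 members (69.7%), beside 44.2% of protein-coding genes. Among CpG-rich starts, 39 of 46 members were bound (84.8%, 71.8 to 92.4%), where 70.4% of all such protein-coding genes were bound. Among the others, 10 of 20 members were bound (50.0%, 29.9 to 70.1%), beside 15.1%. Under these criteria the shares of members stood above those of all genes in both strata, by less in the CpG-rich stratum than overall. Ratios varied within the strata and were not matched to those of all genes. In bound members without a CpG-rich start they ran from 0.14 (*Slc25a36*) up to the limit (*Slc25a14* and *Slc25a35*, both 0.60 when rounded). *Slc25a13*, *Slc25a22* and *Slc25a44* stood at 0.55. The part of CpG content in the calls was not tested. By family, 22 of 27 CpG-rich *Slc25a*, 9 of 11 *Timm* and 8 of 8 *Tomm* genes were bound.

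**Figure D4:**
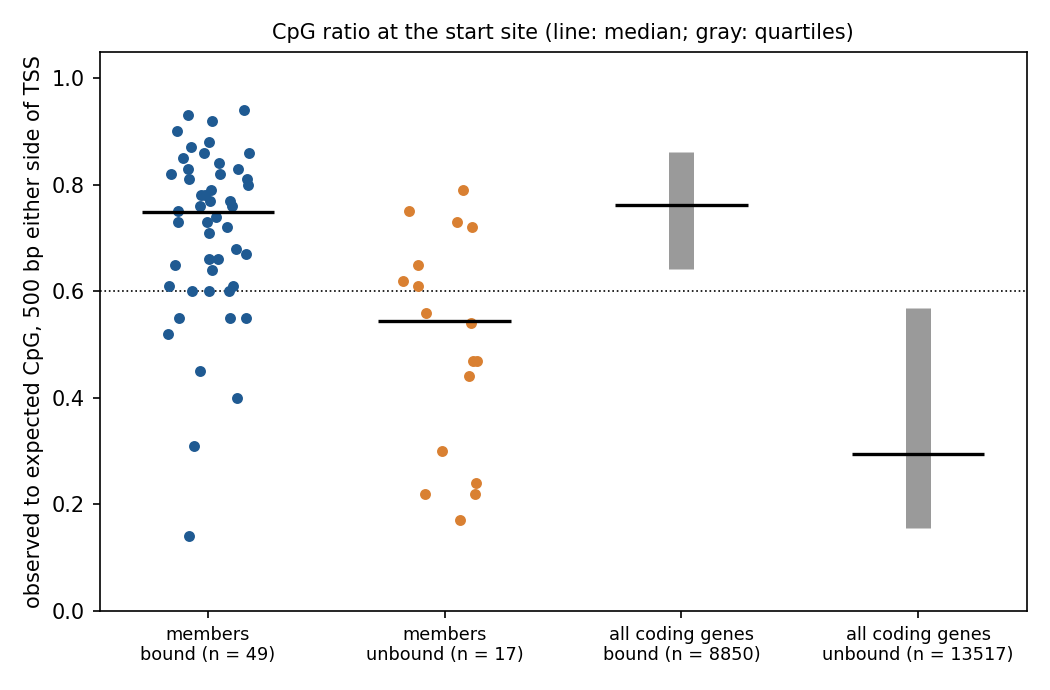
Points give the CpG ratio at the start of each bound (blue) and unbound (orange) member, black lines medians, and gray bars the quartiles over all protein-coding genes. The median was 0.748 in bound and 0.544 in unbound members, beside 0.761 and 0.294 over all bound and unbound genes, and the dotted line is the ratio of 0.6.

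The member groups overlapped over most of their range, from 0.138 (*Slc25a36*) to 0.936 (*Timm23*) in bound and from 0.168 (*Slc25a18*) to 0.792 (*Timm8a1*) in unbound genes. The 7 CpG-rich unbound members were *Slc25a12*, *Slc25a21*, *Slc25a27*, *Slc25a31*, *Slc25a48*, *Timm17b* and *Timm8a1*. The ratio was taken at the start of the transcript with the most exonic bases, which for *Slc25a36* and *Slc25a25* (0.31) is not the start that carries the peak.

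The letters of the ETS motif, bound by a family that includes GABPA, a known regulator of mitochondrial genes, were found in 20 of 61 member peaks (32.8%), beside 20.5% of 9805 gene-proximal peaks. The same *Tomm20* match lies in both of its overlapping peaks and counts in each. Counted by gene, 19 of 49 bound members (38.8%) had a match in a peak, beside 25.5% of all bound genes. They were 6 of 9 *Tomm* genes (66.7%; *Tomm7*, *Tomm20*, *Tomm22*, *Tomm34*, *Tomm40*, *Tomm70a*), 4 of 9 *Timm* genes (44.4%; *Timm8b*, *Timm10*, *Timm13*, *Timm23*) and 9 of 31 *Slc25a* genes (29.0%). In windows from 100 bp before to 99 bp after the TSS, the letters stood in 15 of 49 bound and 1 of 17 unbound members. The unbound one was *Timm8a2*. Over all protein-coding genes, bound or not, the share was 8.90%. Window shares of all bound and of all unbound genes were not computed, so these counts do not set members apart from other bound genes.

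**Figure D5:**
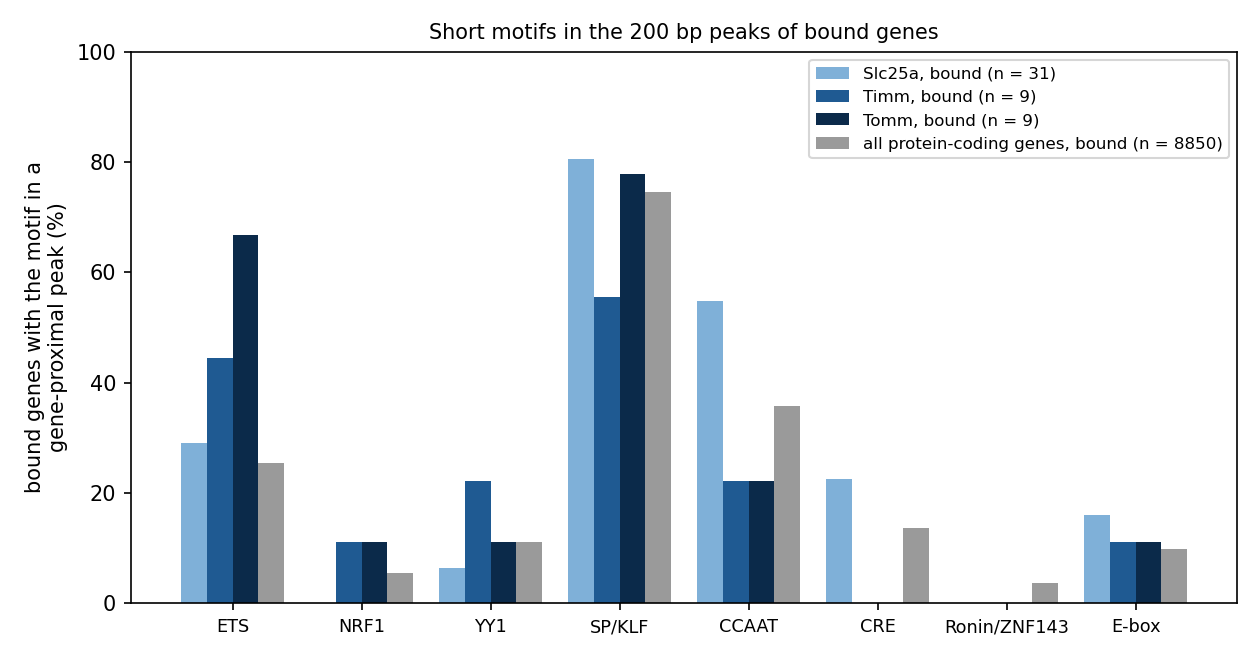
Bars give the percentage of bound genes with each motif, on either strand, in a gene-proximal peak, for the 3 families and for all bound protein-coding genes. ETS letters ran from 29.0% in *Slc25a* to 66.7% in *Tomm* genes beside 25.5% over all, and SP/KLF letters were frequent in every group.

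The other motifs stayed closer to all gene-proximal peaks. SP/KLF letters were in 68.9% of member peaks beside 69.1%, CCAAT in 36.1% beside 30.0%, CRE in 11.5% beside 10.9%, E-box in 11.5% beside 8.10%, YY1 in 8.20% beside 9.11% and NRF1 in 3.28% beside 4.30%. Ronin/ZNF143 letters were in 0 of 61 beside 2.99%. CCAAT was found in 17 of 31 bound *Slc25a* genes (54.8%), 2 of 9 *Timm* and 2 of 9 *Tomm* genes, beside 35.7% of all bound genes. By gene, CRE letters were in 7 of 49 bound members (14.3%), close to the 13.6% of all bound genes. All 7 were *Slc25a* genes, which make up 31 of the 49. E-box letters were in the windows of 4 of 17 unbound and 6 of 49 bound members (23.5 and 12.2%), beside 5.30% of all protein-coding genes, bound or not. The motifs are short, and none is contained in another. The median GC content was 65.5% in member peaks and 67.5% in gene-proximal peaks. With 9 *Tomm* and 9 *Timm* genes, a single gene moves a family's share by over 10 percentage points.

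Import and carrier genes without these name prefixes were bound in 33 of 37 cases (89.2%, 75.3 to 95.7%), beside 39.6% of all protein-coding genes. They were picked by name, and no comparison within CpG-rich starts was made for them. Their nearest peak middles had a median position of -20.0 bp (-153 to 132 bp). Of these, 31 of 33 lay within 100 bp, beside 77.8% of all bound genes. The bound ones include the pores *Vdac1*, *Vdac2* and *Vdac3*, and the sorting machinery *Samm50*, *Mtx1*, *Mtx2* and *Mtx3*. They also include the matrix motor genes *Hspa9*, *Grpel1*, *Grpel2*, *Pam16* and *Dnajc19*, and the processing peptidase genes *Pmpca* and *Pmpcb*. The pyruvate carrier genes *Brp44* and *Brp44l* were bound, as was *Ucp2*. The unbound ones were *Ucp1*, *Ucp3*, *Dnajc15*, a relative of *Dnajc19*, and *Mipep*, whose nearest peak lay 1845 bp upstream. *Mcart1* stood under 2 gene entries and was counted with both.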

How the data were processed

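The deposited list gives genome positions in bp for each BAP1 peak and nothing else. Per the paper and the submitters' processing notes, the authors aligned reads to mm9 (Bowtie 1.0.0), and MACS 1.4.2 found the peaks by comparison to input DNA. The threshold and the rule that joined both samples are not given in the sources used here. Peaks were placed on GENCODE M1 (NCBIM37), with the middle at start + 100 bp. The coding genes of the mitochondrial genome were left out.

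The genes, classes, paralog groups and motifs were chosen with earlier results of these data known, and the CpG criteria after seeing their values. Every member but 1, which is not reported by name here, is named, with full values for genes with several peaks, the farthest and nearest cases and split paralog groups. Shares carry Wilson intervals, and no set test or p-value was computed.

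Alternatives were other windows, the edge of the peak, overlap with the TSS, other sets of TSSs, assignment to the nearest TSS and merging. Scripts were tested on simulated data (Python 3.11.15, numpy 2.4.6, pandas 2.3.3, pysam 0.24.0, bedtools 2.31.1).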

Additional observations from a re-analysis of the deposited data

How the results depend on the processing

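Of 36 alternatives, 35 were counted as close. For shares this meant only staying within the counting interval, which is wide for the small families. With a peak covering a TSS or given to the nearest TSS, the *Timm* share fell from 75.0% to 58.3%, inside its 46.8 to 91.1%. Under these rules *Slc25a* stood at 63.6 and 68.2% and *Tomm* at 90.0%. The median position was -21.0 or -19.0 bp. Members with more than 1 peak numbered 9 with the 500 bp window or 1 TSS per gene. The share of bound members ranged from 66.7% (peak covering a TSS, beside 30.7% of coding genes) to 74.2%. The 500 bp window lost *Slc25a25*, the covering rule *Slc25a25*, *Slc25a30*, *Slc25a42*, *Timm9* and *Timm13*, 1 TSS per gene *Slc25a25* and *Slc25a36*. Members with more than 1 peak fell from 11 to 2 when peaks with edges within 500 bp were merged, which by construction joins close peaks. For CpG-rich members, 2 alternatives chosen after seeing the data gave 86.0% (criteria met at any TSS) and 90.9% (ratio above 0.75, GC above 55%), beside 69.6 and 73.9% of such coding genes. Among the other members, 6 of 16 and 29 of 44 were bound, where the main criteria gave 10 of 20. The matching shares of all coding genes were not computed. A stricter score threshold was not run, since the list has no score. No paired analysis was possible because the list does not separate the samples and no test was made. Depth is unknown, and an unbound gene may have binding below the threshold of the list.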
